A study of Mus musculus with 2 samples.

Results

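Metallothioneins and zinc transporters were examined in single cells of mouse prostate that carried a human androgen receptor transgene. The 9 genes were the metallothioneins Mt1, Mt2, Mt3 and Mt4, the zinc importers Slc39a6, Slc39a8 and Slc39a14, and the zinc exporters Slc30a1 and Slc30a4. They were a list of names, 9 of the 19320 features of the expression table, and all 9 were measured. The genes were chosen by their levels across cell classes, luminal subgroups, libraries and reporter level in earlier results of these same data, so those levels are given below as a description and not as a test.

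Metallothioneins are small cysteine-rich proteins that bind zinc and copper in the cytosol. Transcription of Mt1 and Mt2 is raised by the zinc-sensing factor MTF1 through metal response elements, and also by glucocorticoids and oxidative stress, whereas Mt3 is best known from the brain and Mt4 from stratified squamous epithelium. Transporters of the Slc39a (ZIP) family move zinc into the cytosol from outside the cell or from vesicles, and those of the Slc30a (ZnT) family move it out of the cytosol. The prostate gland is known for the high zinc content of its epithelium and secretion.

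The genotype of the mice was R26 mTmG/hAR:Osr1 Cre/+ on a mixed C57BL/6 and 129S1/SvImJ background. Cre recombinase from the Osr1 locus turns on a green fluorescent protein at the cell membrane (mGFP, the EGFP row of the table) and the human androgen receptor transgene (hARtg, the ARQ row). Both groups carried both alleles and the driver. There was 1 library from prostatic intraepithelial neoplasia (PIN) of mice aged 6 months and 1 from prostatic adenocarcinoma (PCa) of mice aged 12 months, and the number of animals behind each library is not given in the sources used here. Tissue was dissociated with collagenase and TrypLE and profiled by droplet-based 3' RNA sequencing, in which each captured RNA molecule is counted by its own tag (a unique molecular identifier, UMI). Osr1-Cre acts early in the urogenital tract, so EGFP reports that an ancestor of the cell had recombined, not that the cell itself expressed Osr1. No sample without the transgene was analysed here.

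Cell barcodes carried 1 of 2 endings, referred to as set 1 and set 2. No label and no column name ties an ending to PIN or PCa, so no cell was assigned to a tissue. There were 6332 cells in set 1 (median 17235 UMIs) and 9410 in set 2 (median 14824.5 UMIs). The sets are separate libraries, so library, animal, age and lesion cannot be told apart in any difference between them. There were 67 barcode sequences that occurred in both sets. Of the luminal-like cells described below, 38 in set 1 and 54 in set 2 carried such a barcode, and the set 1 cells among them held 0 of the 291 Mt3 UMIs and 0 of the 5 Mt4 UMIs of their class. With 1 library a group there were no replicates and no test was made. Intervals in square brackets are 95% intervals of counting error only.

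Cells were put into classes by marker genes, and the suffix "-like" means that a class rests on those markers alone. Luminal-like cells numbered 3178 in set 1 (51.4% of cells kept) and 7979 in set 2 (86.5%), and basal-like cells numbered 1252 and 145. In luminal-like cells 7 of 8 luminal markers were seen in at least 25% of cells in both sets, and in basal-like cells 6 of 7 basal markers were. Basal-like cells also showed 7 of 8 luminal markers in at least 25% of cells in both sets (7165 and 6799 CPM summed). Leukocyte-like cells (1083 and 257), fibroblast-like cells (112 and 282), endothelium-like cells (41 and 156) and smooth muscle-like cells (56 and 108) served for comparison. The leukocyte-like cells were of different kinds, 746 of 1083 T cell-like in set 1 and 193 of 257 macrophage-like in set 2. Smooth muscle-like cells of set 1 also showed 6 of 6 fibroblast markers in at least 25% of cells. Levels are in CPM, a gene's part of all UMIs that the cells of a class held together, scaled so that 100 CPM is 1 UMI in 10000. UMIs counted at the 3' end do not grow with transcript length.

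The 4 metallothionein genes lie together on mouse chromosome 8, in the order Mt4, Mt3, Mt2, Mt1, all on the plus strand and within 43.1 kb that hold only 1 other RefSeq gene, Gm39227. The gap from Mt4 to Mt3 is 13.6 kb, that from Mt3 to Mt2 is 18.5 kb, and that from Mt2 to Mt1 is 5.32 kb. Slc39a8 is at chr3:135816882-135888572, Slc39a14 at chr14:70303467-70351452, Slc30a1 at chr1:191906697-191913248 and Slc30a4 at chr2:122681233-122702663. The stretches around the transcription starts of the 4 metallothionein genes are shown with the core of the metal response element, TGCACNC or TGCGCNC on either strand, in capitals. Slc30a1, a zinc exporter known as a target of MTF1, is shown beside them. Each sequence runs from 250 bases before to 50 bases after the start in RefSeq (GRCm38.p6), at chr8:94178839-94179138 for Mt1, chr8:94172368-94172667 for Mt2, chr8:94152357-94152656 for Mt3, chr8:94136954-94137253 for Mt4 and chr1:191906531-191906830 for Slc30a1, all on the plus strand.
Mt1: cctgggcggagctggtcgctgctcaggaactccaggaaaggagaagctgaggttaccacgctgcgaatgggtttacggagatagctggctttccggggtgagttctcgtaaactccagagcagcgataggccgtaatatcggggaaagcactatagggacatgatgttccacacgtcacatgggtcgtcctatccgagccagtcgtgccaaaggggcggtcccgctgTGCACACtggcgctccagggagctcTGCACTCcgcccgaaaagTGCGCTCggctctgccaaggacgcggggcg
Mt2: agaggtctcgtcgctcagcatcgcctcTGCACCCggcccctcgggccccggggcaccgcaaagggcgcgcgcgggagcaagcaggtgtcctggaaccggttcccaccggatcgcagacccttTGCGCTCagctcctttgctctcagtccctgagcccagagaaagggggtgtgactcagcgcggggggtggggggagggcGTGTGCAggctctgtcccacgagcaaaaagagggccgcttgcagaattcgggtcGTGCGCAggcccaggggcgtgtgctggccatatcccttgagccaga
Mt3: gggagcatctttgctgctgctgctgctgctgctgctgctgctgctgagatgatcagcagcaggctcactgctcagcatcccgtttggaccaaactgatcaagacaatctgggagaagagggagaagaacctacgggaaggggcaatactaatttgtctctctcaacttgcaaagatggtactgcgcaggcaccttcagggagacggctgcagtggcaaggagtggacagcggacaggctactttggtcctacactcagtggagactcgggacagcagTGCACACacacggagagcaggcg
Mt4: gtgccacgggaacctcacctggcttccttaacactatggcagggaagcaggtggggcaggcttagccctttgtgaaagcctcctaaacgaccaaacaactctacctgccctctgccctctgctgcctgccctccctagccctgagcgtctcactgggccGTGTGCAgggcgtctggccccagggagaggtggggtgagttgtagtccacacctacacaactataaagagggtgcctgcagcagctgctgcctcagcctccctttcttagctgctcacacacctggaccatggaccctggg
Slc30a1: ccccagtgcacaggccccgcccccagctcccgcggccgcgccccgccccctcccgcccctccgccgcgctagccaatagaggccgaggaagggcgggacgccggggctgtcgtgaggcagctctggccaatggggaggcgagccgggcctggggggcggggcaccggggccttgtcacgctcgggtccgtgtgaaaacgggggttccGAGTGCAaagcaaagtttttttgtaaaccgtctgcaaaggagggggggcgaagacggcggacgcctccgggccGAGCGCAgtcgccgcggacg

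The window held 4 cores for Mt2 and 3 for Mt1, against 1 for Mt3 and 1 for Mt4. Slc30a1 had 2 cores and Slc30a4 had 3. Slc39a8 has 2 starts in RefSeq, 1 with no core in its window and 1 with a single core. Over all 32851 windows of the same length, 25.7% held at least 1 core and 1.97% held 3 or more, while TGCACNC was in 12.6% and TGCGCNC in 15.4%. No cores in the windows of the members overlapped. Most of the Mt1 window lies inside the span that RefSeq gives to the gene (chr8:94178883-94180327), which begins upstream of this start. A match of these letters is a description and not a binding site, and the part of the cores in the levels was not tested.

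Mt1 was the most abundant of the 9 genes in luminal-like cells of both sets. Its level was 1226 CPM [1219 to 1233] in set 1 and at 1341 CPM [1336 to 1347] in set 2. Fibroblast-like cells had more Mt1 than luminal-like cells, 1555 and 1640 CPM, and smooth muscle-like cells had 2180 CPM in set 1 but 805 CPM in set 2. Basal-like cells had 342.1 CPM [333.3 to 351.2] in set 1 and 476.7 CPM [437.3 to 518.8] in set 2. Lower still came leukocyte-like cells at 122 and 390.1 CPM, and endothelium-like cells were lowest at 44.8 and 170.9 CPM. No neighbours in this order of 6 classes had overlapping counting intervals in either set. Among leukocyte-like cells, T cell-like cells of set 1 had 70.4 CPM of Mt1, and macrophage-like cells had 203.2 CPM in set 1 and 429 CPM in set 2. The leukocyte-like level of Mt1 was 9.95% of the luminal-like level in set 1 and 29.1% in set 2, beside 8.71% and 6.08% for EGFP. The part of RNA from luminal-like cells in the leukocyte-like levels was not tested.

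Mt2 had the same leading classes as Mt1 at a lower level. Luminal-like cells had 288.7 CPM [285.4 to 292.1] in set 1 and 392.8 CPM [389.8 to 395.8] in set 2, and basal-like cells had 224.2 and 330.5 CPM. Fibroblast-like cells had 652 and 653.7 CPM, the highest level of Mt2 in set 2. Smooth muscle-like cells had 923.4 CPM in set 1 and 266.8 CPM [233.3 to 303.7] in set 2, where the interval met that of basal-like cells [297.8 to 365.8]. Leukocyte-like cells (27.96 and 61.5 CPM) and endothelium-like cells (24.1 and 54.7 CPM) had overlapping intervals within each set. The balance between the pair differed by class. Mt2 gave 19.1% of the UMIs of Mt1 and Mt2 together in luminal-like cells of set 1 [18.9 to 19.3] and 22.7% in set 2 [22.5 to 22.8], but 39.6% [38.6 to 40.6] and 40.9% [37.7 to 44.2] in basal-like cells and 29.6% and 28.5% in fibroblast-like cells. In both sets the share of Mt2 was higher in basal-like than in luminal-like cells, with no overlap of the intervals.

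Mt3 in luminal-like cells was found almost wholly in set 2. Luminal-like cells had 2.90 CPM [2.58 to 3.26] in set 1, from 291 UMIs in 139 of 3178 cells, and 527.8 CPM [524.4 to 531.2] in set 2, from 91138 UMIs in 6162 of 7979 cells. With all cells thinned to 3000 UMIs, so that depth was equal, 0.760% of luminal-like cells in set 1 and 55.4% in set 2 had a UMI of Mt3. Within set 2 the next classes were smooth muscle-like cells (166.1 CPM [139.9 to 195.8]) and fibroblast-like cells (55.9 CPM [44.3 to 69.5]). Leukocyte-like cells had 35.5 CPM [27.5 to 45.0], endothelium-like cells 33.3 CPM and basal-like cells 28.4 CPM [19.4 to 40.03], and these 3 intervals overlapped. In set 1 the classes with the most Mt3 were smooth muscle-like cells (53.5 CPM, seen in 18.2% of thinned cells) and fibroblast-like cells (35.8 CPM [24.6 to 50.3]), both above luminal-like, basal-like (0.844 CPM) and leukocyte-like cells (1.02 CPM).

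Leukocyte-like cells give the level that a gene of epithelial cells can reach in cells that should lack it. In set 2 they carried 6.72% of the luminal-like level of Mt3 and 5.09% of that of Mt4, beside 6.08% for EGFP, 8.88% for the seminal vesicle gene Svs4, 8.41% for the defensin Defa20 and 3.11% for Gulo. The thinned share of cells with Mt3 was 6.93% in leukocyte-like cells of set 2 (median 7021 UMIs) and 55.4% in luminal-like cells (median 16601 UMIs). Smooth muscle-like and fibroblast-like cells of set 2 carried more EGFP (1640 and 1458 CPM) than leukocyte-like cells (611.2 CPM). Their luminal markers summed to 3874 and 2789 CPM, against 1078 CPM in leukocyte-like cells. The part of RNA from luminal-like cells in their Mt3 and Mt4 levels was not tested. For the luminal genes Pbsn, Tgm4 and Clu the leukocyte-like share in set 2 was 4.73%, 4.79% and 4.21%. The Mt3 level of basal-like and endothelium-like cells in set 2 was at or below that of leukocyte-like cells. Whether it is background was not tested.

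Mt4 followed Mt3 at a lower level. In luminal-like cells of set 1 there were 5 UMIs in 3 of 3178 cells (0.0499 CPM [0.0162 to 0.116]), and in set 2 there were 14163 UMIs in 2217 of 7979 cells (82.0 CPM [80.7 to 83.4]). Its level in set 2 was 13.3 CPM [7.44 to 21.9] in basal-like cells, 9.36 CPM in smooth muscle-like cells, 7.90 CPM in endothelium-like cells, 6.29 CPM in fibroblast-like cells and lowest in leukocyte-like cells, at 4.17 CPM [1.80 to 8.22]. These 5 neighbours had overlapping intervals, all well below luminal-like cells. In set 1 fibroblast-like cells held 6 UMIs (6.51 CPM), basal-like cells 2 UMIs, and the other classes none. There a level of 3 UMIs would be 0.508 CPM in leukocyte-like cells, 5.18 CPM in smooth muscle-like cells and 10.3 CPM in endothelium-like cells.

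**Figure D1:**
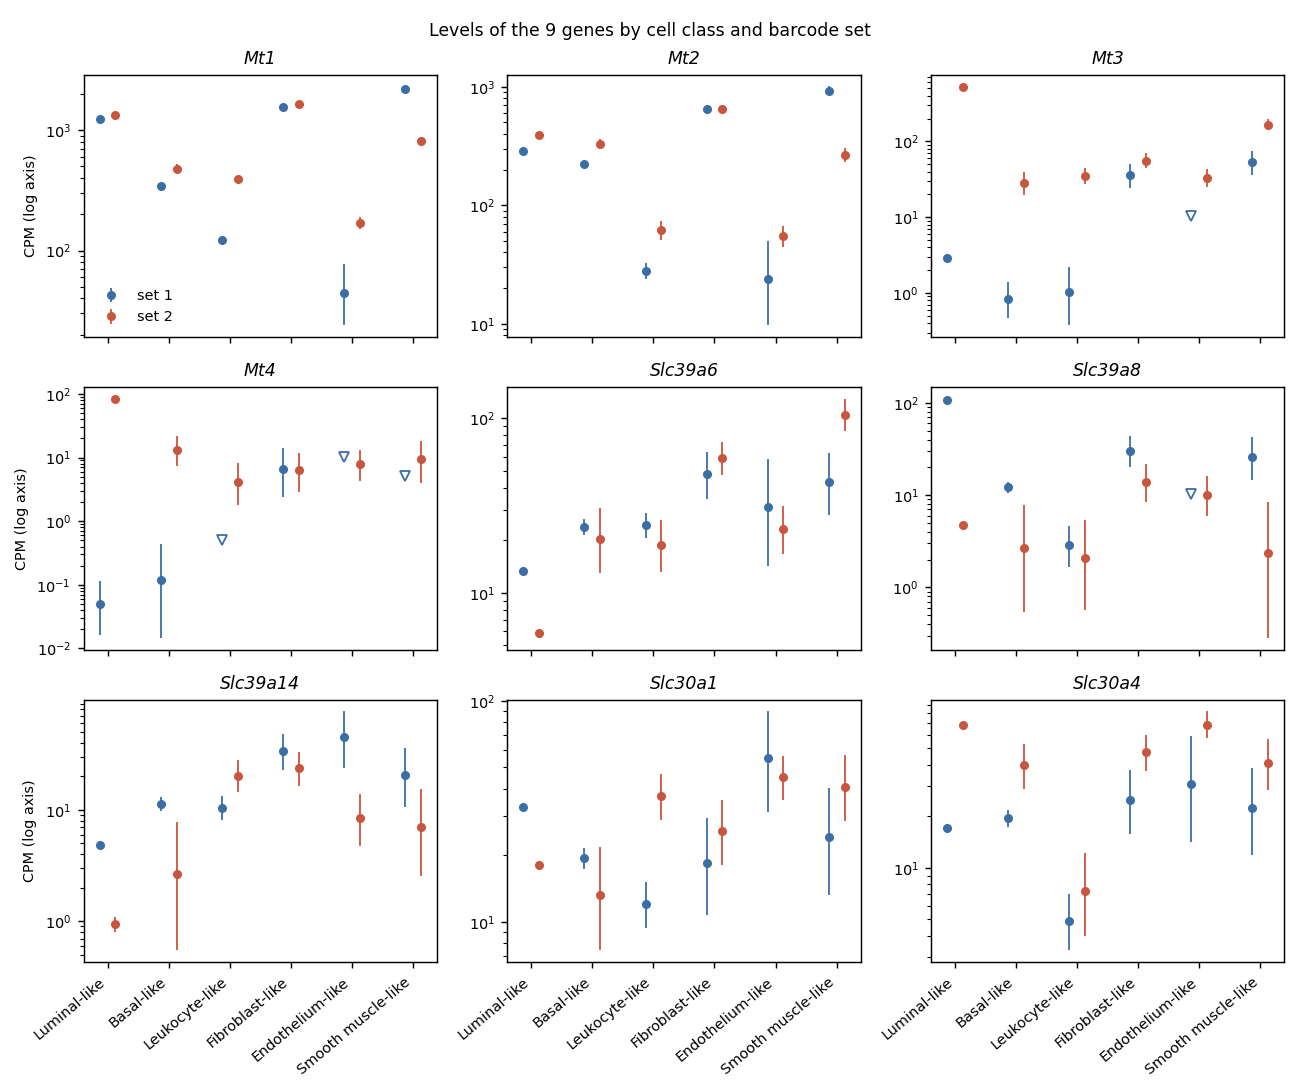
Level of each of the 9 genes in CPM (log axis) in 6 marker-gated classes, for set 1 (blue) and set 2 (red). Points are sums over the cells of 1 library, bars are exact Poisson 95% intervals, and open triangles mark classes with no UMI, drawn at the level of 3 UMIs. Mt3 and Mt4 stand apart in set 2 luminal-like cells (527.8 and 82.0 CPM), and Slc39a8 in luminal-like cells of set 1 (108.1 CPM).

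The make-up of the metallothionein pool differed between the sets. In luminal-like cells of set 1, of 152238 metallothionein UMIs, 80.8% were Mt1, 19.0% Mt2 and 0.191% Mt3. In set 2, of 404727 UMIs, 57.2% were Mt1, 16.8% Mt2, 22.5% Mt3 and 3.50% Mt4. The summed level was 1518 CPM in set 1 and 2344 CPM in set 2. Reporter-low luminal-like cells of set 2, defined below, had a make-up nearer to that of set 1, with 81.1% Mt1, 15.7% Mt2, 3.14% Mt3 and 0.113% Mt4.

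**Figure D2:**
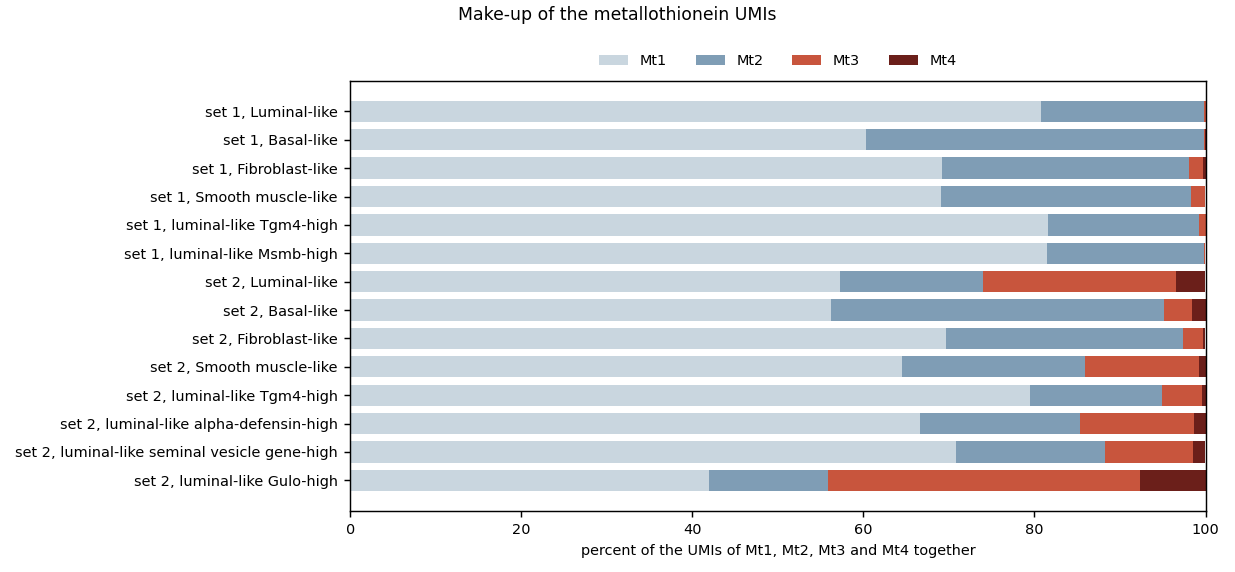
Share of each metallothionein gene, as a percent of the UMIs of Mt1, Mt2, Mt3 and Mt4 together, in 4 classes and in luminal-like subgroups of each set. Mt3 and Mt4 make up 36.6% and 7.62% in Gulo-high luminal-like cells of set 2 and are hardly visible in the rows of luminal-like cells of set 1.

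Among the importers, Slc39a8 was the gene whose level differed most between the sets. Slc39a8 (ZIP8) carries zinc as well as manganese, iron and cadmium across the plasma membrane. Luminal-like cells had 108.1 CPM [106.1 to 110.2] in set 1 and 4.73 CPM [4.41 to 5.07] in set 2, and the thinned share of cells with a UMI was 25.2% and 1.24%. In set 1 fibroblast-like cells had 30.4 CPM [20.2 to 43.9], smooth muscle-like cells 25.9 CPM [14.5 to 42.7], basal-like cells 12.2 CPM [10.6 to 13.98] and leukocyte-like cells 2.88 CPM [1.68 to 4.61]. The luminal-like level was above all of these, and only the fibroblast-like and smooth muscle-like intervals overlapped. Endothelium-like cells of set 1 had no UMI, where a level of 3 UMIs would be 10.3 CPM. In set 2 fibroblast-like cells (13.97 CPM [8.53 to 21.6]) and endothelium-like cells (10.2 CPM [6.02 to 16.0]) stood above luminal-like cells, and basal-like, smooth muscle-like and leukocyte-like cells held 3, 2 and 4 UMIs.

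Slc39a6 (ZIP6, an importer of the plasma membrane) and Slc39a14 (ZIP14, which carries zinc, manganese and iron) were low in luminal-like cells and higher elsewhere. In luminal-like cells Slc39a6 had 13.3 CPM in set 1 and 5.86 CPM in set 2, beside 23.9 and 20.4 CPM in basal-like cells and 24.4 and 18.8 CPM in leukocyte-like cells. Its highest levels were in stroma, with 47.7 and 59.4 CPM in fibroblast-like cells and 43.2 CPM [27.9 to 63.7] and 105.3 CPM [84.7 to 129.4] in smooth muscle-like cells. Slc39a14 had a luminal-like level of 4.87 CPM in set 1 and 0.938 CPM in set 2, and 33.6 and 23.8 CPM in fibroblast-like cells. For both genes the luminal-like level was the lowest of the 6 classes in each set, and only for Slc39a14 in set 2 did its interval overlap that of the next class, basal-like cells (2.66 CPM [0.548 to 7.77]).

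Slc30a1 (ZnT1) exports zinc across the plasma membrane, and Slc30a4 (ZnT4) loads it into vesicles of secretory cells. Slc30a1 ranged from 12.03 CPM in leukocyte-like to 55.1 CPM [31.5 to 89.5] in endothelium-like cells of set 1 and from 13.3 CPM in basal-like to 45.1 CPM in endothelium-like cells of set 2. Luminal-like cells had 33.0 CPM [31.9 to 34.2] in set 1 and 18.2 CPM [17.6 to 18.8] in set 2. Slc30a4 had the opposite order of the sets, its luminal-like level being 17.2 CPM [16.4 to 18.02] in set 1 and 68.5 CPM [67.2 to 69.7] in set 2, where endothelium-like cells reached the same level (68.8 CPM [57.1 to 82.2]). Leukocyte-like cells had the least Slc30a4, 4.91 and 7.30 CPM.

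The next comparison set cells with much reporter against cells with little, within a set, to see which of the genes went with recombination and the transgene. Reporter-high cells had more than 20 EGFP UMIs per 10000. The reporter-low side was cells with no EGFP UMI in set 1 (reporter-none) and cells under 5 per 10000 in set 2, because only 23 luminal-like and 13 basal-like cells of set 2 had none. Leukocyte-like cells, which should not carry the reporter, had a 95th percentile of 3.22 and a 99th of 5.57 EGFP UMIs per 10000 in set 1. In set 2 their median was 3.18, the 95th percentile 13.7 and the 99th 57.6, so some of them lay above the reporter-high limit. From 15 to 25 per 10000, around the upper limit, lay 83 luminal-like cells of set 1 and 46 of set 2. The transgene row ARQ was at 683.6 CPM in reporter-high against 28.9 CPM in reporter-none luminal-like cells of set 1, and at 1543 against 309.8 CPM in set 2. A gene was called past 2-fold when its ratio reached 2-fold in either direction, among genes with at least 20 CPM on 1 side.

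In luminal-like cells of set 1, Slc39a8 was lower in reporter-high cells and Mt1 and Mt2 were slightly higher. Slc39a8 was at 55.0 CPM [51.3 to 58.8] in 470 reporter-high cells and at 125.6 CPM [122.1 to 129.0] in 1488 reporter-none cells, a log2 ratio of -1.19 [-1.30 to -1.09]. Mt1 was at 1446 against 1150 CPM (log2 ratio 0.33 [0.31 to 0.35]) and Mt2 at 367.1 against 259.7 CPM (0.50 [0.45 to 0.55]). Slc30a1 had almost the same level on both sides, 33.2 and 32.8 CPM (0.018 [-0.13 to 0.17]). Slc39a6 (10.8 against 13.8 CPM) and Slc30a4 (14.8 against 17.2 CPM) had log2 ratios of -0.36 and -0.22, Slc39a14 had 4.26 against 4.95 CPM, and Mt3 had 39 against 153 UMIs. Mt4 was seen as 4 UMIs against 1. Among the 4 members with at least 20 CPM on a side, 0 were past 2-fold higher and 1, Slc39a8, was past 2-fold lower, where 3.41% of 5685 genes were higher and 2.85% lower. These 4 had a median log2 ratio of 0.17, and all genes had one of -0.18.

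The luminal-like cells are a mixture of subgroups, and the ratios of set 1 were not the same within them. Within Msmb-high cells, which express the secretory protein beta-microseminoprotein, Mt1 had a log2 ratio of -0.16 [-0.19 to -0.12] and Mt2 of -0.21 [-0.28 to -0.13], opposite in sign to the ratios over all luminal-like cells. Within proximal-high cells, which express markers of the proximal ducts, they were 0.64 and 0.86. Slc39a8 was lower in reporter-high cells in both, by a log2 ratio of -1.93 [-2.33 to -1.54] within Msmb-high and -0.59 [-0.73 to -0.45] within proximal-high cells. Pbsn, the androgen-dependent secretory gene probasin, also differed between these groups, at 743.9 CPM in reporter-high and 3400 CPM in reporter-none luminal-like cells, and its part in the result was not tested.

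In luminal-like cells of set 2 the difference between reporter-high and reporter-low cells was of another size. Mt3 was at 544.1 CPM [540.6 to 547.7] in 7659 reporter-high cells and at 64.4 CPM [57.4 to 72.0] in 240 reporter-low cells, a ratio of 8.46 (log2 3.08 [2.92 to 3.25]). Mt4 was at 84.7 against 2.31 CPM, 14107 against 11 UMIs, a ratio of 36.6 (log2 5.20 [4.36 to 6.20]). The reporter-low level of Mt4 was under that of leukocyte-like cells (4.17 CPM), and the reporter-low level of Mt3 was above it (35.5 CPM [27.5 to 45.0]). Slc30a4 was at 70.1 against 18.5 CPM (log2 1.92 [1.62 to 2.24]).

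The importers of set 2 lay on the other side. Slc39a8 was at 2.50 CPM [2.27 to 2.76] in reporter-high and at 66.5 CPM [59.3 to 74.2] in reporter-low luminal-like cells, a log2 ratio of -4.73 [-4.94 to -4.52]. The reporter-high level was that of leukocyte-like cells (2.09 CPM [0.568 to 5.34]). Slc39a14 was at 0.673 against 8.62 CPM (-3.68 [-4.21 to -3.13]) and Slc39a6 at 5.59 against 12.4 CPM (-1.15 [-1.53 to -0.75]), both under 20 CPM on either side. Mt1 was lower in reporter-high cells, 1331 against 1664 CPM (-0.32 [-0.35 to -0.29]), and Mt2 higher, 395.8 against 321.4 CPM (0.30 [0.23 to 0.37]). Slc30a1 was at 18.4 against 11.6 CPM (0.67 [0.29 to 1.08]). Of the 6 members with at least 20 CPM on a side, 3 were past 2-fold higher (Mt3, Mt4 and Slc30a4) and 1 lower (Slc39a8), where 10.2% of 5832 genes were higher and 14.7% lower. Mt4, Slc30a4 and Slc39a8 met the limit of 20 CPM only through the side where they were high, and a gene that does so has to differ, so nothing is read from these counts. Over the 6 members the median log2 ratio was 1.11, beside -0.11 for all genes.

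Most of the reporter-low luminal-like cells of set 2 belonged to 1 subgroup, since 150 of 240 were Tgm4-high, against 110 of 7659 reporter-high cells. Tgm4 encodes prostate transglutaminase, a secretory protein of the anterior prostate. Within Tgm4-high cells Mt1 had the opposite sign, Slc30a1 had a larger ratio (0.86 [0.071 to 1.68]), and the other members kept their sign with smaller ratios. Mt3 was at 177 against 76.8 CPM (log2 1.21 [0.99 to 1.42]), Mt4 at 21.5 against 1.47 CPM (3.88 [2.58 to 5.55]) and Slc30a4 at 23.8 against 9.67 CPM (1.30 [0.69 to 1.94]). Slc39a8 was at 53.9 against 86.8 CPM (-0.69 [-0.97 to -0.41]), 1.61-fold lower, where it was 26.5-fold lower over all luminal-like cells. Slc39a6 and Slc39a14 had intervals that included 0 within this subgroup. Mt1 had a log2 ratio of 0.083 [0.033 to 0.13] here. Pbsn was at 134.3 CPM in reporter-high and at 6108 CPM in reporter-low luminal-like cells of set 2, and at 4431 against 8369 CPM within Tgm4-high cells, and its part in these results was not tested.

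**Figure D3:**
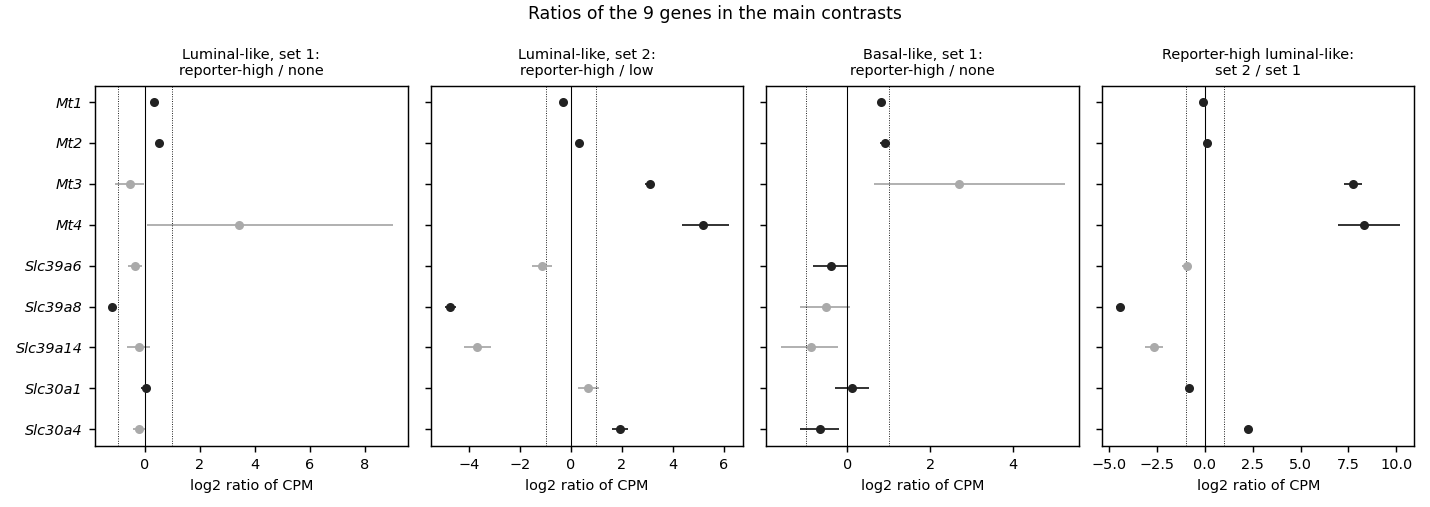
Log2 ratio of the CPM of the 9 genes in 4 contrasts: reporter-high against reporter-none luminal-like cells of set 1, reporter-high against reporter-low luminal-like cells of set 2, reporter-high against reporter-none basal-like cells of set 1, and reporter-high luminal-like cells of set 2 against set 1. Bars are exact conditional binomial 95% intervals of counting error, dotted lines mark 2-fold, grey points have under 20 CPM on both sides, and a gene with 3 or fewer UMIs on both sides has no point. Mt3, Mt4 and Slc30a4 lie right of 2-fold and Slc39a8 left of it in the second and the last panel.

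In basal-like cells of set 1 Mt1 and Mt2 were both higher in reporter-high cells. The transgene row ARQ was at 726.3 CPM in reporter-high and 91.35 CPM in reporter-none cells. Mt1 was at 521.7 CPM [498.1 to 546.2] in 209 reporter-high cells and at 297.1 CPM [285.6 to 308.9] in 726 reporter-none cells, a log2 ratio of 0.81 [0.72 to 0.90]. Mt2 was at 346 against 185.1 CPM (0.90 [0.79 to 1.01]). Slc30a4 (14.0 against 22.1 CPM, -0.66 [-1.15 to -0.20]) and Slc39a14 (6.56 against 12.2 CPM, -0.89 [-1.61 to -0.23]) were lower, and the intervals of Slc39a6, Slc39a8 and Slc30a1 included 0. Mt3 was seen as 8 against 3 UMIs. None of the 5 members with at least 20 CPM on a side was past 2-fold in the reporter-high against reporter-none basal-like cells of set 1, that is 0 higher and 0 lower, where 1.88% of 5052 genes were higher and 2.22% lower. Over the 5 the median log2 ratio was 0.11, and over all genes it was -0.065.

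In basal-like cells of set 2 there were 55 reporter-high and 63 reporter-low cells, and few counts. These sides differed little in the transgene. ARQ was at 431.5 CPM [376 to 492.9] in reporter-high and 329.5 CPM [279.7 to 385.7] in reporter-low cells, with overlapping intervals, so the ratios below compare reporter levels more than transgene levels. Mt1 (509.1 against 435.8 CPM, 0.22 [-0.046 to 0.50]) and Mt2 (346 against 327.4 CPM, 0.080 [-0.24 to 0.40]) had intervals that included 0. Mt4 had 12 UMIs against 0, which is at least 3.74-fold higher against a floor of 3 UMIs. It was seen in only 3.45% of all 145 basal-like cells of set 2. On the scale of the reporter limits, the 24 cells with EGFP from 60 to 100 held 1 Mt4 UMI, and the 20 cells at 100 or more held 1. Most of the 12 UMIs thus lay in the remaining reporter-high cells, so the Mt4 ratio rests on few cells. Slc30a4 was at 49.7 against 23.4 CPM (1.09 [0.013 to 2.26]) and Slc30a1 had 11 against 3 UMIs (1.78 [-0.14 to 4.26]). Of the 7 members with at least 20 CPM on a side, 3 were past 2-fold higher and 0 lower, where 4.41% of 5255 genes were higher and 4.72% lower. These 3 were Mt4, Slc30a4 and Slc30a1, of which Mt4 and Slc30a1 met the limit of 20 CPM only through the side where they were high and Slc30a1 had an interval that included 0, and the median was 0.90, beside 0.037 for all genes.

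Levels over 7 bins of EGFP showed where along the range the genes differed. In luminal-like cells of set 2, Mt3 was at 39.99 CPM with no EGFP UMI, 58.7 CPM up to 2 per 10000, 84.1 CPM from 2 to 10, 313.2 CPM from 10 to 30, 712.9 CPM from 30 to 60, 580.4 CPM from 60 to 100 and 484 CPM at 100 or more. Mt4 was at 4.44, 1.33, 3.02, 66.5, 166.9, 93.1 and 62.9 CPM in the same bins, so both genes were highest from 30 to 60 and lower again at the top. Slc39a8 stayed between 51.5 and 70.0 CPM up to 30 per 10000 and was at 9.79, 2.08 and 0.887 CPM in the bins above. Slc30a4 was at 8.89, 19.0, 16.6, 41.7, 68.9, 81.5 and 60.5 CPM. The bin with no EGFP UMI in set 2 held 23 cells.

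In set 1 the bins gave a different picture. Slc39a8 was at 125.6, 114.9, 105, 63.0, 54.8, 62.7 and 24.6 CPM from the lowest to the highest bin. Mt1 was at 1150, 1193, 1319, 1517, 1180, 1460 and 1913 CPM, and Mt2 was at 259.7 CPM in the lowest and 509.7 CPM in the highest bin. Mt3 was between 1.42 and 7.37 CPM in the 6 lower bins and had no UMI in the 71 cells at 100 or more. Of the 5 Mt4 UMIs in luminal-like cells of set 1, 4 were in those 71 cells. Mt3 and Mt4 were low in set 1 in every bin of EGFP, the highest included.

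**Figure D4:**
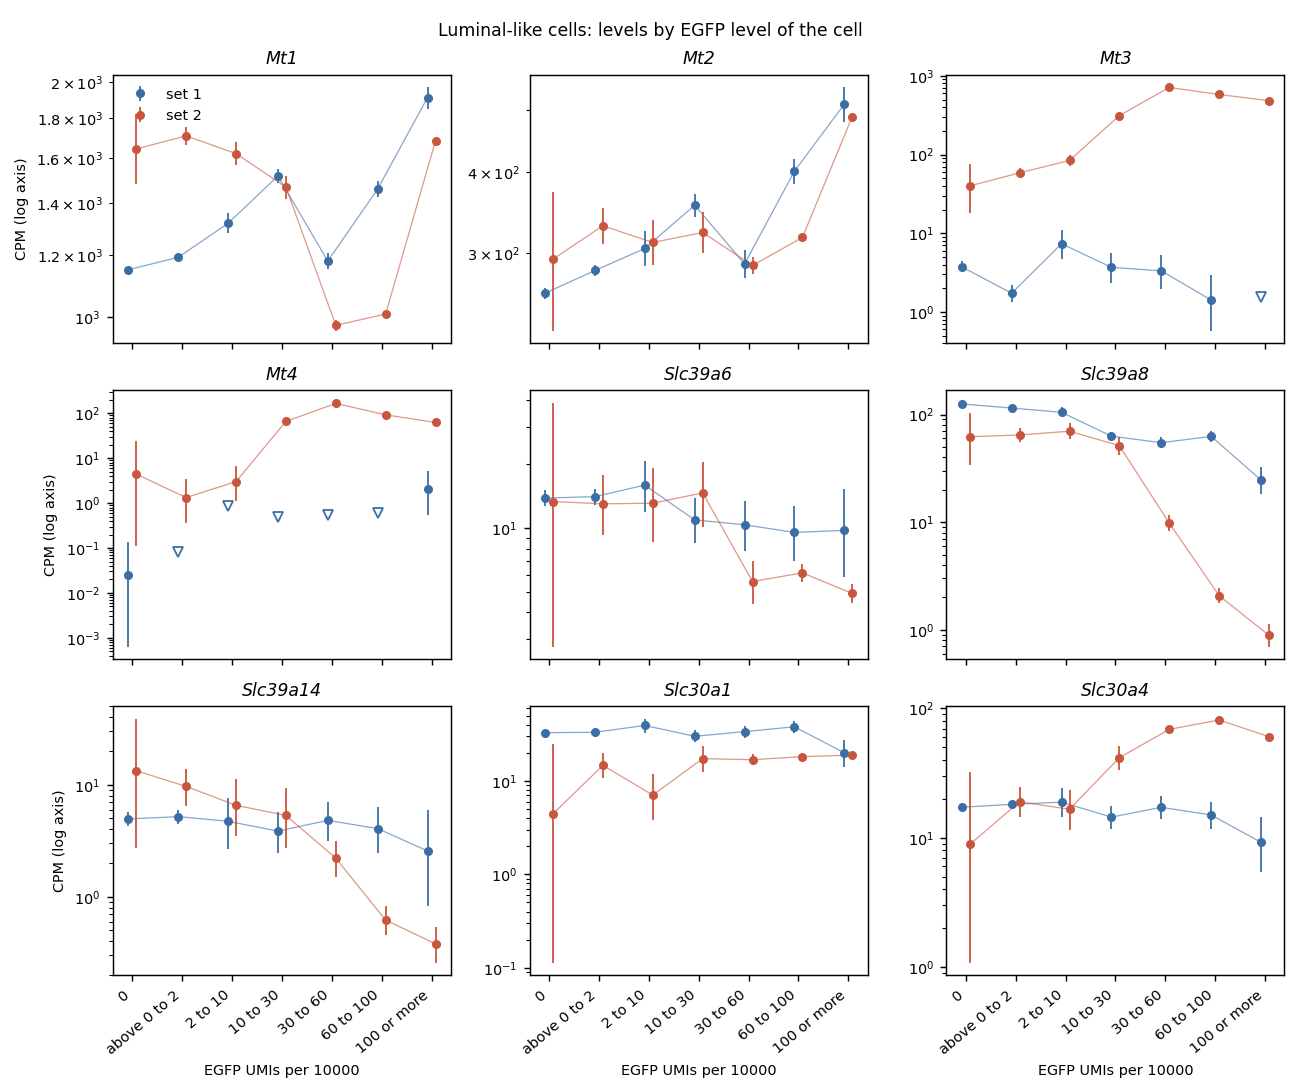
Level of each gene in CPM (log axis) in luminal-like cells by EGFP UMIs per 10000 of the cell, in 7 bins, for set 1 (blue) and set 2 (red). Points are sums over the cells of a bin with exact Poisson 95% intervals, lines join neighbouring bins, and open triangles mark bins with no UMI at the level of 3 UMIs. In set 2 Mt3, Mt4 and Slc30a4 are higher from 10 per 10000 on, and Slc39a8 and Slc39a14 are lower from 30 on. In set 1 Mt3 is at 7.37 CPM or less.

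The sets were compared next within the same reporter class. The classes were not equal between the sets, since reporter-high luminal-like cells had EGFP at 10410 CPM in set 2 and 6165 CPM in set 1 and ARQ at 1543 and 683.6 CPM. On the low side EGFP was at 165.7 CPM and 0, and ARQ at 309.8 and 28.9 CPM, and the part of these gaps in the differences was not tested. In reporter-high luminal-like cells, 7659 of set 2 and 470 of set 1, Mt3 was at 544.1 against 2.56 CPM, a log2 ratio of 7.73 [7.28 to 8.23] from 90604 against 39 UMIs. Mt4 had 14107 against 4 UMIs (8.34 [6.98 to 10.2]). Slc30a4 was at 70.1 against 14.8 CPM (2.24 [2.05 to 2.44]), and Slc39a8 at 2.50 against 55.0 CPM (-4.46 [-4.63 to -4.29]). Slc39a14 (0.673 against 4.26 CPM, -2.66), Slc39a6 (5.59 against 10.8 CPM, -0.95) and Slc30a1 (18.4 against 33.2 CPM, -0.85) were lower in set 2. Mt1 and Mt2 differed little, with log2 ratios of -0.12 and 0.11, and the sign for Mt1 turned when every cell weighed the same (0.047), after thinning (0.060) or over all luminal-like cells (0.13). Of the 7 members with at least 20 CPM on a side, 3 were past 2-fold higher and 1 lower in set 2, where 10.2% of 5804 genes were higher and 15.6% lower. All 4 (Mt3, Mt4, Slc30a4 and Slc39a8) met the limit of 20 CPM only in the set where they were high. Over the 7 members the median log2 ratio was 0.11, and that of all genes -0.046.

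Other markers also differed between the luminal-like cells of the sets. Over all luminal-like cells, basal markers summed to 1345 CPM in set 1, with 4 of 7 seen in at least 25% of cells, and to 72.6 CPM in set 2, with 0 of 7. Leukocyte markers summed to 3871 and 720.5 CPM. Their part in the differences between the sets was not tested.

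The same contrast was made over all basal-like cells, which differed in EGFP (3967 CPM in set 2 and 1642 CPM in set 1), and then in luminal-like cells with little reporter. In basal-like cells of set 2 against set 1, Mt3 was at 28.4 against 0.844 CPM (log2 5.07 [4.12 to 6.09]), with the level of set 2 under that of its leukocyte-like cells. Slc30a4 was at 39.9 against 19.5 CPM (1.03 [0.55 to 1.49]), Mt1 at 476.7 against 342.1 CPM (0.48 [0.35 to 0.61]) and Mt2 at 330.5 against 224.2 CPM (0.56 [0.40 to 0.71]). Slc39a8 and Slc39a14 had 3 UMIs each in set 2, with log2 ratios of -2.20 [-4.49 to -0.63] and -2.10 [-4.39 to -0.53]. Of the 5 members with at least 20 CPM on a side, 2 were past 2-fold higher and 0 lower, where 3.13% of 5211 genes were higher and 5.8% lower. Both, Mt3 and Slc30a4, met the limit of 20 CPM only in set 2. Over the 5 members the median log2 ratio was 0.56, beside -0.00047 for all genes.

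In reporter-low luminal-like cells of set 2 (240) against reporter-none cells of set 1 (1488), Mt3 was at 64.4 against 3.75 CPM (log2 4.10 [3.82 to 4.39]). Leukocyte-like cells had 35.5 CPM of Mt3 in set 2 and 1.02 CPM in set 1, so part of the 64.4 CPM can be background. Slc30a1 was at 11.6 against 32.8 CPM (-1.504 [-1.92 to -1.12]), Slc39a8 at 66.5 against 125.6 CPM (-0.92 [-1.09 to -0.75]) and Mt1 at 1664 against 1150 CPM (0.53 [0.50 to 0.57]). Slc30a4 (18.5 against 17.2 CPM, 0.10 [-0.23 to 0.42]) and Slc39a6 (-0.16 [-0.57 to 0.23]) had intervals that included 0. Of the 5 members with at least 20 CPM on a side, 1 was past 2-fold higher (Mt3) and 1 lower (Slc30a1), where 4.2% of 5839 genes were higher and 8.94% lower. Both met the limit of 20 CPM only on the side where they were high. The sides also differed in make-up. Of the 240 cells of set 2, 150 were Tgm4-high, against 440 of all 3178 luminal-like cells of set 1. Tgm4-high cells of set 1 had more Mt3 than its other luminal-like cells (15.04 against 1.22 CPM) and less Slc30a1 (18.7 against 35.0 CPM). The part of this make-up in the ratios was not tested. The 5 members had a median log2 ratio of 0.31 and all genes one of -0.11. For Slc39a8 and Slc30a4 the log2 ratio between the sets was -0.92 and 0.10 in cells with little reporter and -4.46 and 2.24 in reporter-high cells. These comparisons share no cells, and the difference between them was not tested.

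Luminal-like cells were also split into subgroups by genes that are not members, and each subgroup was set against the remaining luminal-like cells of its set. In set 2 Mt3 and Mt4 were highest in Gulo-high cells, which express L-gulonolactone oxidase, the last enzyme of vitamin C synthesis. In the 1965 Gulo-high cells Mt3 was at 1056 CPM against 364.8 CPM in the others (log2 1.53 [1.51 to 1.55]) and Mt4 at 220.1 against 39.4 CPM (2.48 [2.43 to 2.53]). With reporter-high cells alone the log2 ratios were 1.48 and 2.42. Slc30a4 was lower there, 47.4 against 74.9 CPM (-0.66 [-0.73 to -0.59]).

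Mt3 and Mt4 were lower in the other secretory subgroups of set 2 than in the cells outside each. Those outside cells include most Gulo-high cells, since only 81 of the 1965 were alpha-defensin-high and 71 were seminal vesicle gene-high. Luminal-like cells that were not Gulo-high had Mt3 at 364.8 CPM and Mt4 at 39.4 CPM. The Mt4 level of seminal vesicle gene-high cells was close to the latter. In 946 alpha-defensin-high cells Mt3 was at 257.3 against 565.5 CPM (-1.14) and Mt4 at 25.9 against 89.9 CPM (-1.80), while Slc30a4 had its highest subgroup level, 85.4 CPM (0.37 [0.30 to 0.44]). In 874 seminal vesicle gene-high cells Mt3 was at 265.2 CPM (-1.10) and Mt4 at 37.4 CPM (-1.25), and Mt1 was at 1829 against 1265 CPM (0.53 [0.52 to 0.55]). In 352 proliferating cells Mt3 (500.8 CPM) and Mt4 (84.5 CPM) were within 0.1 log2 of the others, Mt1 was at 1041 against 1360 CPM (-0.39), and Mt2 was at 458.5 against 388.7 CPM (0.24), so that Mt2 made up 30.6% of Mt1 and Mt2 there, against 22.7% in all luminal-like cells of set 2.

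Slc39a8 in set 2 was found mainly in 2 small subgroups. In 295 Tgm4-high cells it was at 72.6 against 1.79 CPM (log2 5.34 [5.14 to 5.55]) and in 91 proximal-high cells at 45.2 against 4.24 CPM (3.41 [3.09 to 3.73]). Among reporter-high cells alone the levels were 53.9 against 1.55 CPM (5.12) and 48.4 against 2.04 CPM (4.57). The Tgm4-high cells held 521 of the 817 Slc39a8 UMIs in luminal-like cells of set 2. They also had Slc39a14 at 8.36 against 0.616 CPM (3.76) and Mt1 at 2068 against 1310 CPM (0.66), with Mt3 at 122.6 CPM (-2.15), Mt4 at 10.2 CPM (-3.07) and Slc30a4 at 16.4 CPM (-2.10). Alpha-defensin-high cells had 6 Slc39a8 UMIs in all (0.284 CPM).

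In set 1 no luminal-like cell was alpha-defensin-high, seminal vesicle gene-high or Gulo-high, and the subgroups differed mainly in Mt1, Mt2 and Slc39a8. The 599 Msmb-high cells had Mt1 at 2101 against 963.7 CPM (log2 1.12 [1.11 to 1.14]) and Mt2 at 472 against 233.7 CPM (1.01 [0.98 to 1.05]), with Slc39a8 at 38.4 against 129.1 CPM (-1.75 [-1.85 to -1.65]) and Slc39a6 at 6.56 against 15.4 CPM (-1.23). The 927 proximal-high cells had Mt1 at 846.5 CPM (-0.71) and Slc39a8 at 136.6 CPM (0.51), and the 1042 cells high in Krt6a and Clu had 808.1 CPM (-0.84) and 141.9 CPM (0.65). These subgroups shared 413 cells. The 440 Tgm4-high cells of set 1 held 184 of the 291 Mt3 UMIs of that set's luminal-like cells (15.04 against 1.22 CPM, 3.63 [3.28 to 3.99]), and had Mt1 at 1566 CPM (0.41) and Slc30a1 at 18.7 against 35.0 CPM (-0.90). Tgm4-high cells had about the same Slc39a8 as the others in set 1 (116.3 against 107 CPM, 0.12) and far more than the others in set 2.

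**Figure D5:**
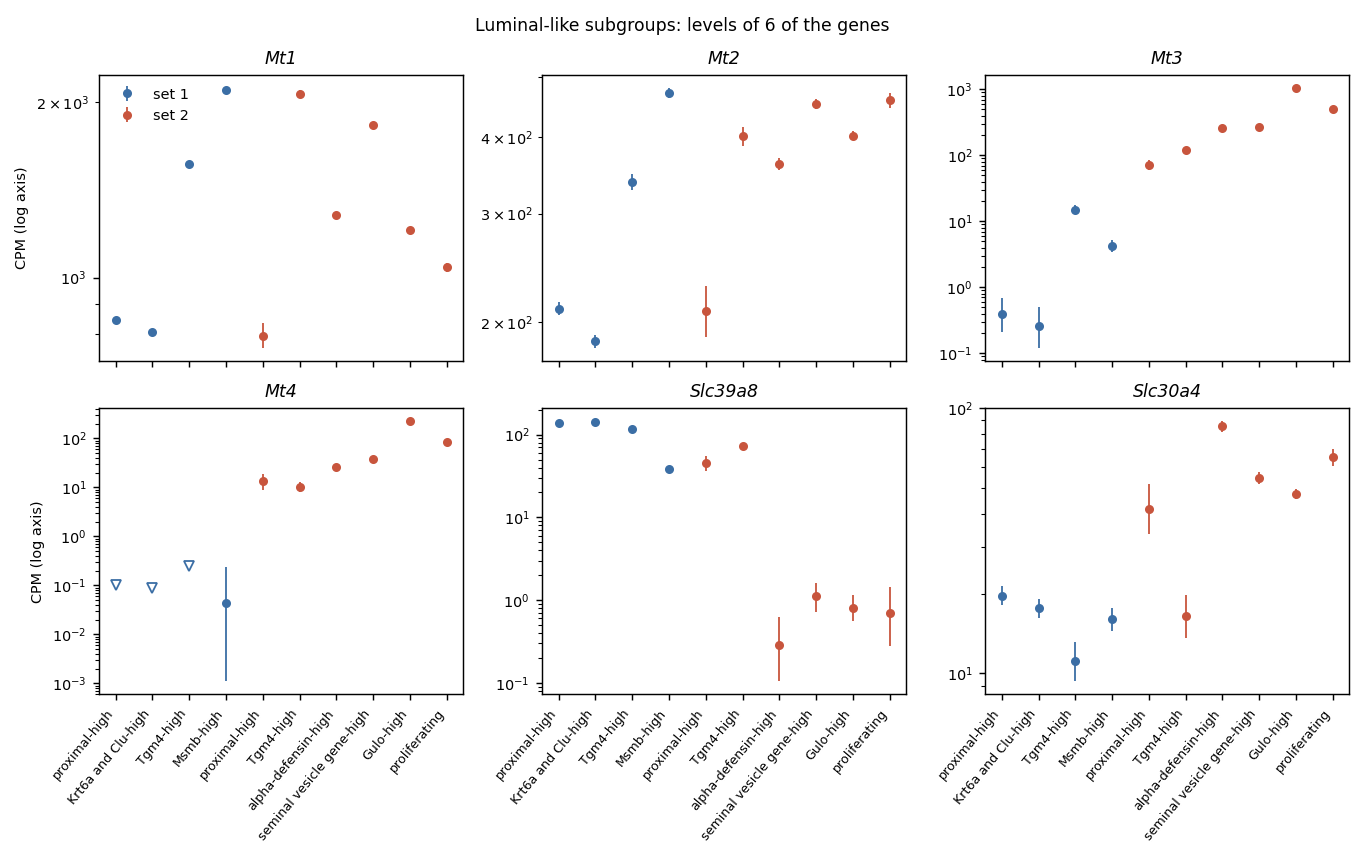
Level in CPM (log axis) of Mt1, Mt2, Mt3, Mt4, Slc39a8 and Slc30a4 in subgroups of luminal-like cells of set 1 (blue, the 4 on the left) and set 2 (red, the 6 on the right), with exact Poisson 95% intervals. Open triangles mark subgroups with no UMI, at the level of 3 UMIs, and a cell can be in more than 1 subgroup. Mt3 and Mt4 peak in Gulo-high cells, and Slc39a8 of set 2 is high in proximal-high and Tgm4-high cells.

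Single cells varied widely around these sums. In reporter-high luminal-like cells of set 2 Mt1 had a 10th percentile of 1.99, a median of 9.26, a 90th percentile of 29.7 and a 99th percentile of 72.5 UMIs per 10000, and Mt3 had 0, 3.42, 13.3 and 29.5. Mt4 had a median of 0, a 90th percentile of 2.37 and a 99th percentile of 10.98. After thinning, Mt4 was seen in 19.7% [18.5 to 20.9] of 4321 such cells with Mt3 and in 3.56% [2.95 to 4.25] of 3263 cells without Mt3. No such gap was found for Slc30a4, since Mt3 was seen in 56.9% [54.1 to 59.7] of cells with and 57.0% [55.8 to 58.2] of cells without Slc30a4. Mt3 was seen in 57.9% [56.6 to 59.1] of cells with Mt1 and 52.3% [49.5 to 55.2] of cells without it. Cells of 1 library are not replicates, and these shares describe that library.

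Across 25 sums over classes, sets and subgroups, which share cells and libraries, Mt3 and Mt4 (Pearson r = 0.89 of log2(CPM + 10)) and Mt1 and Mt2 (r = 0.85) were the most alike pairs of members. Slc30a4 followed Mt3 and Mt4 (both r = 0.71), Slc39a6 followed Slc39a14 (r = 0.71), and Slc39a8 ran opposite to Mt4 (r = -0.55). Among 9891 genes the most like Mt3 were Ldhb (lactate dehydrogenase B, 0.97), Csrp2 (0.95) and Clic6 (0.94), and those most like Mt4 were Gulo (0.96), Ypel1 (0.96) and Iqub (0.95). The sums include a subgroup defined by Gulo, and the likeness of Mt4 and Gulo was known from earlier results of these data, so the place of Gulo is partly set by the choice of sums. For Mt1 they were Ctsf (cathepsin F, 0.90), Aldh7a1 (0.89) and A4galt (0.88), and for Mt2 they were Ctsf (0.88), Gspt2 (0.88) and Gk5 (0.86). For Slc39a8 they were Tcaf2 (0.92), Cd55 (0.92) and Pigr (the polymeric immunoglobulin receptor, 0.89), for Slc39a14 Skil (0.89), Fmnl2 (0.89) and Zfp451 (0.88), and for Slc30a4 Msx2 (0.87), Kremen1 (0.84) and Bcar1 (0.83).

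Other genes of zinc transport, with the sensor Mtf1, were taken as a list of 20, of which 17 were in the table. In luminal-like cells of set 1, of 10 with at least 20 CPM on a side, 0 were past 2-fold higher and 1 lower in reporter-high cells, Slc30a2 at 24.2 against 54.3 CPM (log2 -1.16). Slc30a2 (ZnT2) loads zinc into secretory vesicles. In set 2 it was the 1 gene of 9 that was past 2-fold higher, at 397.5 against 54.3 CPM (2.87), and Slc39a9 was the 1 past 2-fold lower, at 17.7 against 39.96 CPM (-1.17). In reporter-high luminal-like cells of set 2 against set 1, Slc30a2 was higher (397.5 against 24.2 CPM, 4.04) and Slc39a11 lower (11.8 against 34.8 CPM, -1.57) of 10 genes. In reporter-low luminal-like cells 0 of 9 were past 2-fold, in basal-like cells between the sets 0 of 5, in basal-like cells of set 1 between reporter groups 0 of 6, and in those of set 2 there was 1 of 5, Slc30a5 with 13 UMIs against 1 (3.60). Slc39a9, Slc39a11 and Slc30a5 met the limit of 20 CPM only through the side where they were high, so nothing is read from their being counted. The median log2 ratio of this list was -0.30 in luminal-like cells of set 1 and -0.45 in those of set 2. Over all genes, 3.41% were past 2-fold higher and 2.85% lower in the luminal-like contrast of set 1, and 10.2% and 14.7% in that of set 2. Between the sets in reporter-high luminal-like cells the shares were 10.2% and 15.6%. In the basal-like contrast of set 2 they were 4.41% and 4.72%, and in that of set 1 they were 1.88% and 2.22%. Between the sets they were 4.2% and 8.94% in reporter-low luminal-like cells and 3.13% and 5.8% in basal-like cells. With so few genes, a count of 0 or 1 cannot be told apart from such shares.

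Of 8 glucocorticoid-responsive genes, 7 had at least 20 CPM on a side in luminal-like cells of set 1, where 3 were past 2-fold higher in reporter-high cells (Fkbp5 2.24, Zbtb16 1.67 and Ddit4 1.31 on the log2 scale) and 0 lower, with a median of 0.79. In set 2, 2 of 8 were higher (Tsc22d3 1.86 and Ddit4 1.34) and 1 was lower (Sgk1 -1.55), with a median of 0.67. Of 8 oxidative stress genes, 1 of 7 was higher in set 1 (Slc7a11 1.30), and 2 of 7 were lower in set 2 (Srxn1 -2.41 and Slc7a11 -3.34). Over all genes in these luminal-like contrasts, 3.41% were higher and 2.85% lower in set 1, and 10.2% and 14.7% in set 2. Lists this short cannot be told apart from such shares by a count of 1 or 2 genes. In basal-like cells of set 2 against set 1, where Mt1 and Mt2 were higher by 0.48 and 0.56, 7 of 8 oxidative stress genes were past 2-fold higher, beside 3.13% of all genes, among them Hmox1 (heme oxygenase, 3.29) and Slc7a11 (the cystine transporter, 2.80). There 1 of 6 glucocorticoid-responsive genes was past 2-fold higher (median 0.72). Of 12 genes induced by tissue dissociation, 2 were past 2-fold higher and 1 lower. In reporter-high against reporter-none basal-like cells of set 1, where Mt1 and Mt2 were higher by 0.81 and 0.90, 0 of 7 oxidative stress genes (median -0.26) and 0 of 6 glucocorticoid-responsive genes (median -0.0040) were past 2-fold. Over all genes of that contrast 1.88% were higher and 2.22% lower. The part of either list in the levels of Mt1 and Mt2 was not tested in any of these contrasts.

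Of 13 copper and iron genes, 4 of 10 were past 2-fold higher in reporter-high luminal-like cells of set 2 (Hamp 3.92, Tfrc 1.74, Atp7a 1.23 and Atox1 1.21) and 0 of 9 in set 1. Genes known to be induced by tissue dissociation also differed between these groups, with 5 of 12 past 2-fold higher in reporter-high luminal-like cells of set 2 (Ier3 2.07, Fos 1.88, Junb 1.63 and Atf3 1.30 among them) and 1 of 12 in set 1 (Fos 1.14). Their part in the metallothionein levels was not tested. Beside these counts, 10.2% of all genes were past 2-fold higher in reporter-high luminal-like cells of set 2 and 3.41% in those of set 1. None of 3 measured genes of citrate metabolism with at least 20 CPM was past 2-fold in luminal-like cells of either set.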

How the data were processed

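The table was deposited as natural log values, ln(1 + UMIs per 10000 UMIs of the cell), which the authors made with Cell Ranger 3.1.0 (mm10 with added mGFP and hARtg sequences) and Seurat. UMI counts were recovered from it, and 100% of 56988269 values above 0 came out whole within 0.001. Scripts used Python 3.11.15, numpy 2.4.6, scipy 1.17.1, scanpy 1.11.5 and matplotlib 3.10.9. Set 1 held 134850345 UMIs and set 2 held 187280119. The number of cells in set 1 equals the number that the study's methods give for PIN, but barcode endings are not tied to samples by any label, so the sets were left unassigned.

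Doublets were scored with Scrublet (expected rate 6%). Its automatic limits called 0 cells, so a limit of 0.25, chosen after the scores were seen, removed 150 cells of set 1 and 183 of set 2, leaving 6182 and 9227. Each cell was given the class with the highest mean marker level, scaled to the 99th percentile, when this exceeded the next class by 0.15, and 760 cells (4.93%) had none. Luminal-like subgroups could overlap. Proximal-high cells had a scaled level of 0.6 or more, and the others reached 20 UMIs per 10000 (alpha-defensins, 10 symbols, and seminal vesicle genes), 2 (Gulo), 5 (proliferation genes), 5 and 50 (Krt6a and Clu) or 50 (Tgm4 and Msmb). The planned reporter-low side was cells with no EGFP UMI. For set 2 it was replaced by cells under 5 per 10000 after the data were seen.

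With 1 library a group no test was made. Levels have exact Poisson intervals, shares exact Clopper-Pearson intervals and ratios exact conditional binomial intervals, all 95% and for counting error only. A level of 0 was taken as up to 3 UMIs. Scripts were tested on simulated data. Members and lists were chosen with earlier results of these data known. The 9 members were always named, genes of the other zinc list where past 2-fold with an interval excluding 1-fold, at most 4 examples of the other lists, and the 3 genes most like a member. Alternatives were the gate, the doublet limit, weighting, thinning, totals, reporter groups, filters and subgroup limits, and, added after the data were seen, reporter contrasts within subgroups and with another low side, and subgroups of reporter-high cells.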

Additional observations from a re-analysis of the deposited data

Results flagged for a closer look

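In 4 pairs the reporter contrast had opposite directions in the 2 sets, with no replicates, so the difference was not tested. In luminal-like cells the log2 ratio of reporter-high to reporter-none or reporter-low cells was 0.33 in set 1 and -0.32 in set 2 for Mt1, -0.55 and 3.08 for Mt3, and -0.22 and 1.92 for Slc30a4. In basal-like cells it was -0.66 and 1.09 for Slc30a4. The basal-like sides of set 2 differed little in ARQ (431.5 against 329.5 CPM). The low side was cells with no EGFP UMI in set 1 and cells under 5 per 10000 in set 2. For Mt1 the sign also differed between subgroups of a set, with 0.64 in proximal-high and -0.16 in Msmb-high cells of set 1. Within Tgm4-high cells of set 2 it was 0.083, against -0.32 over all luminal-like cells. In luminal-like cells of set 1 Mt3 (2.56 against 3.75 CPM) and Slc30a4 (14.8 against 17.2 CPM) were under 20 CPM on both sides. The interval of this Slc30a4 ratio, -0.44 to -0.0011, came close to 0.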

How the results depend on the processing

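No paired analysis was possible because there is a single library on either side. Of 1419 recomputed values 1181 kept their direction and moved by less than the counting interval (or 1.5 times for counts), 230 moved further and 8 reversed. The cause of the shifts was not tested. For the log2 ratio of Mt1 between reporter groups in luminal-like cells of set 1 (0.33), the stricter gate gave 0.40, equal weight per cell 0.19, any reporter UMI against none 0.15, thinning 0.18, leaving out cells with proliferation genes 0.28 and, added later, a low side under 5 per 10000 gave 0.30. Within subgroups, also added later, Mt1 was 0.64 in proximal-high, -0.16 in Msmb-high and 0.083 in Tgm4-high cells, the last in set 2 where the ratio was -0.32. Mt2 was -0.21 in Msmb-high cells, and Mt3 was 0.62 in proximal-high and 1.21 in Tgm4-high cells. Slc39a8 was -0.59 in proximal-high, -1.93 in Msmb-high and -0.69 in Tgm4-high cells. For Mt1 in basal-like cells of set 1 (0.81) the stricter gate gave 0.94, any reporter UMI 0.39 and thinning 0.91. Slc39a8 in set 1 (-1.19) was -0.39 with any reporter UMI, -1.07 after thinning and -1.94 without the proximal, seminal vesicle gene, alpha-defensin and Gulo subgroups. In set 2 Slc39a8 (-4.73) was -4.49 with equal weight, -4.51 after thinning and -4.47 without those subgroups, and Mt3 (3.08) was 2.78 with equal weight and 2.79 without them. Between the sets in reporter-high luminal-like cells, Mt1 (-0.12) was 0.047 with equal weight, 0.060 after thinning and 0.13 over all luminal-like cells, and Mt3 (7.73) was 7.26 after thinning. In Gulo-high cells Mt4 (2.48) was 2.60 with equal weight, 2.30 at a doubled limit and 2.42 in reporter-high cells only, and Mt2 (0.043) was -0.077 at a doubled limit. The Mt1 level of luminal-like cells in set 1 (1226 CPM) was 1216 with doublets kept, 1204 with the stricter gate, 1206 with equal weight and 1275 with genes over 1% of UMIs left out of the totals. In set 2 Mt1 (1341 CPM) was 1387 and Mt3 (527.8 CPM) 524.1 with equal weight, and 1406 and 553.3 without those genes. Members past 2-fold numbered 1 in place of 0 in basal-like cells of set 1 with the stricter gate, 1 in place of 2 between basal-like sets with the stricter gate and with equal weight, and 0 in place of 1 in luminal-like cells of set 1 with any reporter UMI. With any reporter UMI the percent of all genes past 2-fold was 0.956 in luminal-like (6.26 at the main setting) and 0.563 in basal-like cells of set 1 (4.1). With at least 1 UMI in place of 20 CPM it was 16.3 in luminal-like cells of set 1, 45.3 in those of set 2 (24.9), 13.2 in basal-like cells of set 1, 17.5 in those of set 2 (9.13), and between the sets 40.2 in reporter-high (25.8) and 27.0 in reporter-low luminal-like (13.1) and 29.2 in basal-like cells (8.92). At 5 CPM basal-like cells gave 6.19 in set 1, 17.5 in set 2 and 14.7 between the sets. The stricter gate (23 and 30 cells) in basal-like cells of set 2, and any reporter UMI against none in luminal-like (23 cells with none) and basal-like cells of set 2 (13), were not run.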
